A study of Mus musculus with 3 samples.

Results

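Chromatin genes encode the proteins that package DNA and set how accessible it is. Remodelling ATPases slide or evict nucleosomes, deacetylases, acetyltransferases, methyltransferases and demethylases add or remove marks on histones and DNA, bromodomain and chromobox proteins bind those marks, and the high mobility group (HMG) proteins bend DNA or bind nucleosomes. Most of this machinery works in every dividing cell, while some members, among them the de novo DNA methyltransferases, Polycomb proteins and Hmga2, are known for high levels in embryonic cells. Members were selected by gene symbol alone, from the families Hdac, Smarc, Kdm, Kat, Hist, H2af, H3f, Hmga, Hmgb, Hmgn, Cbx, Chd, Dnmt, Ezh, Setd, Brd, Rbbp and Ing. Of 15096 genes named on the array, 94 carried such a symbol, and 49 of them had values on all 3 arrays (52.1%, against 25.9% of all genes).

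The arrays compared the cells of the ureteric tree, the branching epithelium that forms the collecting ducts, with the other cells of the mouse kidney at 15.5 days post coitum. All cells came from HoxB7-GFP transgenic kidneys of both sexes, in which green fluorescent protein (GFP) is driven in the ureteric tree. The cells were sorted by fluorescence, and every array read RNA amplified from the GFP+ cells together with RNA amplified from the GFP- cells. The GFP- fraction is a mixture of cap mesenchyme, stroma, nephron, vessel and blood cells, so a ratio near 0 can hide differences among those cells, and fewer cells of a type cannot be told apart from less RNA per cell.

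A value is the log2 of the ratio GFP+ over GFP-, so that 1 means a 2-fold higher signal in GFP+ cells. That direction is likely but not stated with dyes in the labels. In it, 5 of 6 measured ureteric epithelium markers were higher (list median 2.05) and 6 of 7 macrophage and leukocyte markers lower (list median -1.96). The calls are by limma with adjustment over all 3915 genes measured, of which 1.38% were called higher and 1.4% lower. These lists were chosen with earlier results of these data known, so the counts are no independent check of the direction. The arrays were not alike. Over all genes, arrays 2 and 3 had a Pearson correlation of 0.883, whereas array 1 had 0.080 with array 2 and 0.277 with array 3. The value on each array is therefore given for many members. Where only a mean and SD are given, the mean can join arrays of opposite sign.

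None of the 49 chromatin genes passed the threshold (limma, adjusted p below 0.05 over all genes), in either direction, where 1.38% of all genes were called higher and 1.4% lower, or 2.78% together. At an unadjusted p below 0.05, limma gave 5 members higher and 0 lower, beside 8.45% and 6.41% of all genes. At the same threshold, an ordinary one-sample statistic without shared variances gave 4 higher (Brd2, Dnmt3b, Hmgn5 and Kdm6a) and 1 lower (Setd3). The shares of all genes were 7.25% and 4.78%. After adjustment the ordinary statistic called 0 members, but also only 1 gene higher and 0 lower among all 3915. Means lay between -0.40 for Brd3 and 0.58 for Kdm2b, no member reached a 2-fold mean difference (3.04% of all genes did), and the median over the members was 0.081 against 0.034 over all genes. The mean was above 0 for 34 of the 49, or 69.4%, and for 54.9% of all genes. The 95% limma interval of the mean stayed within a 2-fold difference either way for 48 of the 49, as it did for 84.2% of all genes. The exception was Kdm2b, whose upper bound was 1.13. The median half-width of these intervals was 0.44.

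**Figure D1:**
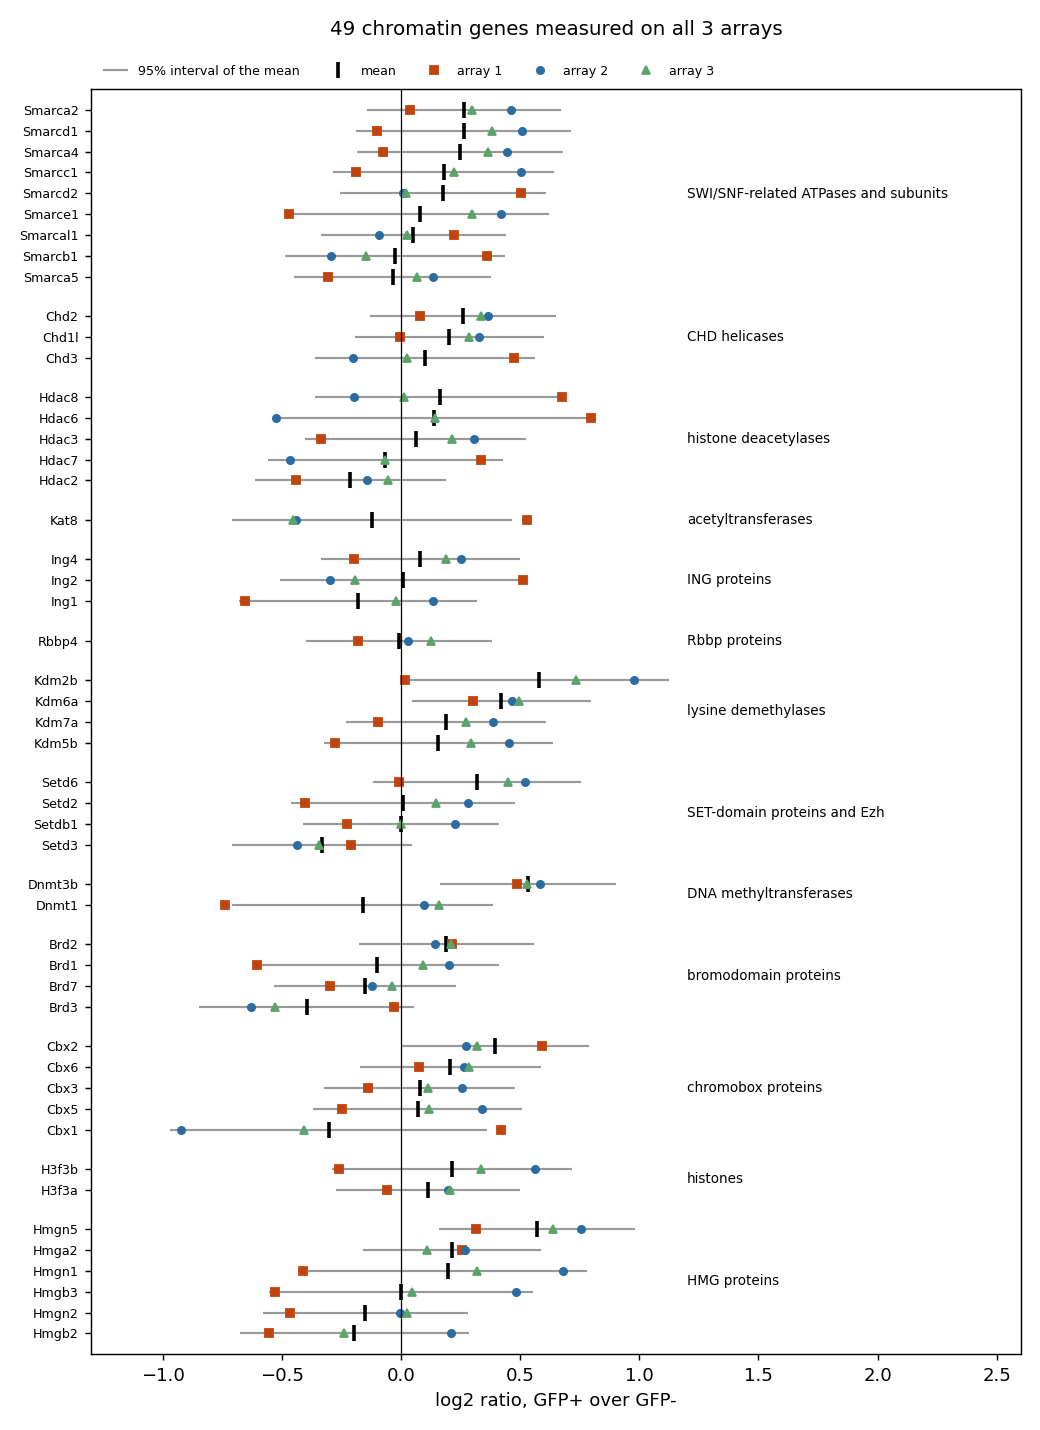
Log2 ratio (GFP+ over GFP-, horizontal axis) of each of the 49 chromatin genes, grouped by family, with 1 symbol per array, a bar at the mean and a line for the 95% limma interval. Dnmt3b, Hmgn5 and Kdm6a lie to the right of 0 on all 3 arrays, and the square of array 1 often stands on the other side of 0 from arrays 2 and 3.

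The 5 members with an unadjusted p below 0.05 were Dnmt3b, Hmgn5, Kdm6a, Kdm2b and Cbx2, and all had positive values on the 3 arrays. RefSeq (GRCm38.p6) gave 1 promoter window for Dnmt3b, Hmgn5 and Kdm6a, 4 windows for Kdm2b and 0 for Cbx2. The single windows, picked after the values were seen, are shown because these genes had the 3 smallest unadjusted limma p-values among the members and were positive on every array. Each runs 5′ to 3′ from 250 bases before the annotated start to 50 after it. Capitals mark the GC box GGGCGG and the CCAAT box on either strand, which did not overlap each other. The windows are chr2:153649199-153649498 on the plus strand for Dnmt3b, chrX:109013331-109013630 on the minus strand for Hmgn5, and chrX:18162325-18162624 on the plus strand for Kdm6a.
Dnmt3b: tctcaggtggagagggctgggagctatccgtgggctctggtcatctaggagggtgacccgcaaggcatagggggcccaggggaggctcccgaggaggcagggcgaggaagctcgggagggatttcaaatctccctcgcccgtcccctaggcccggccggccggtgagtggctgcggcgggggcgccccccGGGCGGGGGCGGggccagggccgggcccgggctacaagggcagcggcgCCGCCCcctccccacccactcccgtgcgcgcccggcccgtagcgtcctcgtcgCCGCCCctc
Hmgn5: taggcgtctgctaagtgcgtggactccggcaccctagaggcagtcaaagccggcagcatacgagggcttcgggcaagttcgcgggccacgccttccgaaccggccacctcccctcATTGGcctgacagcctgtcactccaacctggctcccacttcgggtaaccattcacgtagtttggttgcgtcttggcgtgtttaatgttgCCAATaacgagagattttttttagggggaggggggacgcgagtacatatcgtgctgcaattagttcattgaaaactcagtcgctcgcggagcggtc
Kdm6a: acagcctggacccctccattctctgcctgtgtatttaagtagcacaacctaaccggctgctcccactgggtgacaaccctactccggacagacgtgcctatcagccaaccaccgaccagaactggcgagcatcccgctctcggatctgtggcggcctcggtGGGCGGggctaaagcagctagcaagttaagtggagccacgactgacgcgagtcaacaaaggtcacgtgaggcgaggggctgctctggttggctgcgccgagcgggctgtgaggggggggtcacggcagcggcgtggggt
Dnmt3b had 4 matches to GGGCGG and 0 to CCAAT, with 30 CG dinucleotides. Hmgn5 had 2 matches to CCAAT and 0 to GGGCGG, with 23 CG dinucleotides, and Kdm6a had 1 match to GGGCGG and 0 to CCAAT, with 21. Neither these nor the TATA box TATAAA was common to the 3 windows, and TATAAA was in none of them. Over 32851 windows of all genes in the table, 35.7% held GGGCGG, 37.4% CCAAT and 13.6% TATAAA, and the median window had 7 CG dinucleotides. Over the 62 windows of 44 measured members, the shares were 80.6%, 40.3% and 8.1%, and the median was 27. The 2 sets are unlike, because the first takes in genes whether or not they were measured on the arrays. The shares over all measured genes were not counted, so a trait of measured genes cannot be told apart from one of chromatin genes. A match is a string of letters and says nothing of what binds there.

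Dnmt3b and Dnmt1 represent the enzymes that methylate cytosine in DNA, the former setting new marks and the latter copying them after replication. Dnmt3b read 0.49, 0.58 and 0.53 on arrays 1, 2 and 3. All values were positive and close together, with a mean of 0.53 ± 0.049 (SD, n = 3 arrays), or 1.45-fold, and a limma adjusted p of 0.184, the smallest of any member. Dnmt1 read -0.74, 0.095 and 0.16. Its array 1 value stood apart from the other two on the negative side, and the mean was -0.16 ± 0.50 (limma adjusted p = 0.773). The 95% intervals of the 2 enzymes, 0.16 to 0.90 and -0.71 to 0.39, overlapped, and their difference was not tested. Dnmt3a and Dnmt3l had no value on any array.

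Lysine demethylases had the highest family median with more than 1 gene measured, 0.30 over 4 genes of 12, and all 4 means were positive. Kdm2b, which brings a Polycomb complex to unmethylated CG islands, read 0.019, 0.98 and 0.74. Its array 1 value was close to 0 and the others were high, giving 0.58 ± 0.50 or 1.49-fold (limma adjusted p = 0.307). Kdm6a, which removes the histone H3 methylation that Polycomb sets, read 0.30, 0.47 and 0.49, all positive, with a mean of 0.42 ± 0.10 (limma adjusted p = 0.285). Kdm5b, a demethylase of the H3 mark at active promoters, read -0.28, 0.45 and 0.29, so that array 1 opposed the others, with a mean of 0.16 ± 0.38. Kdm7a had a mean of 0.19 ± 0.25. Kdm1a and Kdm3b had values on array 3 alone, -0.10 and -0.48, and 6 further Kdm genes had none.

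SWI/SNF complexes use ATP to move nucleosomes, and 9 of 13 genes named Smarc were measured, with a median of 0.18. The alternative catalytic ATPases of the complex gave like values. Smarca4 (also called Brg1) read -0.074, 0.45 and 0.37, with a mean of 0.25 ± 0.28, and Smarca2 (also called Brm) read 0.036, 0.46 and 0.30, with a mean of 0.27 ± 0.22. Array 1 was near 0 for both, and arrays 2 and 3 were positive. A second Smarca2 probe without a value on array 1 read -0.65 and -0.70 on arrays 2 and 3, opposite in sign to the first, so the direction for Smarca2 depends on the probe. The core scaffold subunit Smarcc1 read -0.19, 0.50 and 0.22 (mean 0.18 ± 0.35). Among the accessory and core subunits, Smarcd1 had a mean of 0.26 ± 0.32, Smarcd2 0.18 ± 0.28, Smarce1 0.081 ± 0.48 and Smarcb1 -0.026 ± 0.34. Smarca5, the ATPase of the ISWI remodellers, read -0.31, 0.13 and 0.066 (mean -0.036 ± 0.24), and Smarcal1, which reanneals DNA at stalled replication forks, had a mean of 0.051 ± 0.16. Smarca1, Smarcad1 and Smarcc2 were listed on array 3 alone, at -0.37, -0.13 and -0.15, and Smarcd3 had no value.

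Of the CHD helicases, 3 of 8 were measured, and all had positive means. Chd2 read 0.079, 0.37 and 0.33, positive on every array (mean 0.26 ± 0.16), and Chd1l, a remodeller recruited by poly(ADP-ribose), had 0.20 ± 0.18. Chd3, the ATPase of the NuRD repressor complex, had a mean of 0.10 ± 0.34 over 2 probes that disagreed. One probe was positive on the 3 arrays (0.34, 0.37 and 0.59) and the other read 0.61, -0.77 and -0.54, so no direction can be given for Chd3. Chd1, Chd5, Chd6, Chd8 and Chd9 had no value.

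The median of the histone deacetylases was 0.34 on array 1, -0.20 on array 2 and 0.011 on array 3, and 0.062 over the 5 genes of 8 measured. Hdac2, a class I enzyme of the NuRD and Sin3 complexes, was the only one with the same sign on all arrays, -0.44, -0.14 and -0.056 (mean -0.21 ± 0.20, limma adjusted p = 0.601). Hdac8 read 0.68, -0.20 and 0.011 (mean 0.16 ± 0.46), with array 1 high and the others near or below 0. Hdac6, which deacetylates tubulin in the cytoplasm, spanned 0.80, -0.52 and 0.14 (mean 0.14 ± 0.66). Hdac3, the enzyme of the NCoR corepressor, had a mean of 0.062 ± 0.35 and the class IIa enzyme Hdac7 -0.066 ± 0.40. Hdac5, of the same class, had -0.42 and -0.54 on arrays 2 and 3 only, and Hdac1 and Hdac9 had no value.

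Acetyltransferases were poorly covered, with 1 of 5 genes measured on all arrays. Kat8, which acetylates histone H4, read 0.53, -0.44 and -0.45. Array 1 was positive and the other arrays negative, and the mean was -0.12 ± 0.56 (limma adjusted p = 0.839). Kat14 had -0.082 and -1.003 on arrays 2 and 3, and Kat2a and Kat6b had -1.25 and -0.77 on array 3 alone. Ing1 and Ing2, which tie the Sin3 deacetylase complex to methylated H3, went opposite ways on array 1, with -0.66, 0.13 and -0.020 for Ing1 (mean -0.18 ± 0.42) and 0.51, -0.30 and -0.19 for Ing2 (mean 0.0076 ± 0.44). Ing4, a subunit of an acetyltransferase complex, read -0.20, 0.25 and 0.19 (mean 0.080 ± 0.24), and Ing3 had 0.44 and -0.13 on arrays 1 and 3.

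Rbbp4 and Rbbp7 are close relatives that bind histones in NuRD, Sin3 and Polycomb complexes. Rbbp4 read -0.18, 0.030 and 0.13, small values on both sides of 0 (mean -0.0085 ± 0.16). Rbbp7 had no value on array 1 and read -1.56 and -0.78 on arrays 2 and 3, the lowest pair of any member, without a test in the 3-array fit. Rbbp5, a subunit of H3 methyltransferase complexes, had 0.11 and 0.094 on the same arrays. Ezh2, the Polycomb methyltransferase, had 0.014 and -0.056 on arrays 2 and 3, and Ezh1 had no value.

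The SET-domain genes had a median of 0.0047 over the 4 measured genes of 8, of which Ezh1 and Ezh2 were not measured on all arrays. Setd3, which methylates actin rather than histones, read -0.21, -0.44 and -0.35, negative on every array, with a mean of -0.33 ± 0.11 (limma adjusted p = 0.412). Setd6, a protein methyltransferase, read -0.010, 0.52 and 0.45 (mean 0.32 ± 0.29). Setd2, which marks transcribed gene bodies, had a mean of 0.0093 ± 0.36 over 2 probes with means of -0.24 and 0.26. Setdb1, a methyltransferase of heterochromatin, read -0.23, 0.23 and -0.0014. Setd7 read 0.76 on array 1 and -0.98 on array 3, and Setd5 -0.041 on array 3 alone.

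Among readers of histone marks, 5 of 7 chromobox genes were measured, with a median of 0.078. Cbx1, Cbx3 and Cbx5 encode the heterochromatin proteins of the HP1 family. Cbx1 read 0.42, -0.92 and -0.41 (mean -0.30 ± 0.68, the largest SD of any member), whereas Cbx3 read -0.14, 0.26 and 0.12 (mean 0.078 ± 0.20) and Cbx5 -0.25, 0.34 and 0.12 (mean 0.070 ± 0.30). Cbx1 thus had the opposite sign to its 2 relatives on each array. Cbx2, a Polycomb chromobox protein, read 0.59, 0.27 and 0.32, positive throughout (mean 0.39 ± 0.17, limma adjusted p = 0.336), and Cbx6, of the same group, had 0.21 ± 0.12. Cbx8 had -0.18 and 0.10 on arrays 1 and 3, and Cbx7 had no value.

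The bromodomain genes had a median of -0.13 over 4 of 5 genes, which became 0.035 without array 1. Brd2 and Brd3 are sister proteins that bind acetylated histones. Brd2 read 0.22, 0.14 and 0.21, a narrow positive range (mean 0.19 ± 0.041, limma adjusted p = 0.611), and Brd3 read -0.031, -0.63 and -0.53, the lowest mean of all members at -0.40 ± 0.32 (limma adjusted p = 0.409). Their values did not overlap, but neither passed, and their difference was not tested. Brd7, a SWI/SNF subunit, had -0.15 ± 0.13, negative on every array, and Brd1, a scaffold of acetyltransferase complexes, -0.10 ± 0.44.

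HMG genes had the lowest array 1 median of the families with more than 1 gene measured, -0.44, against 0.38 on array 2 and 0.078 on array 3, with 6 of 12 genes measured. Hmgn5, which binds nucleosomes and loosens compact chromatin, read 0.31, 0.76 and 0.64, positive on each array, with a mean of 0.57 ± 0.23 or 1.48-fold (limma adjusted p = 0.201). Its relatives were lower, Hmgn1 with -0.41, 0.68 and 0.32 (mean 0.20 ± 0.56) and Hmgn2 with -0.47, -0.0043 and 0.024 (mean -0.15 ± 0.28). Hmga2, an embryonic DNA-binding protein, read 0.26, 0.27 and 0.11, all positive but small (mean 0.21 ± 0.088, limma adjusted p = 0.582). The DNA-bending proteins Hmgb2 and Hmgb3 were negative on array 1, Hmgb2 with -0.55, 0.21 and -0.24 (mean -0.20 ± 0.38) and Hmgb3 with -0.53, 0.48 and 0.045 (mean 0.00026 ± 0.51). Hmgb1, 2 of its related sequences, Hmgb4, its antisense transcript Hmgb4os and Hmgn3 had no value.

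Under the histone symbols, H3f3a and H3f3b were measured. Both encode the same replacement histone, H3.3, so their probes may share signal. H3f3a read -0.057, 0.20 and 0.20 (mean 0.11 ± 0.15) and H3f3b -0.26, 0.56 and 0.34 (mean 0.21 ± 0.42), with array 1 negative for both. The array's annotation names most histone genes by newer symbols, and 8 genes whose former symbols match the histone pattern were measured on all arrays. They were added after the values were seen, and none passed (adjusted p between 0.585 and 0.950 by limma). The H2A.Z variants H2az1 (-0.29, 0.53 and 0.11) and H2az2 (-0.21, 0.49 and 0.32) and Macroh2a1 (-0.56, 0.40 and 0.033) were negative on array 1 and positive on the others. H2ax, the variant phosphorylated at DNA breaks, showed the reverse (0.50, -0.66 and -0.69), as did the replication-dependent H3 genes H3c1 (0.52, -0.45 and -0.19) and H3c7 (0.59, -0.22 and -0.017) and the linker histone gene H1f6 (0.11, -0.16 and -0.15). H1f2, also a linker histone gene, was negative throughout (-0.079, -0.48 and -0.13). Replication-dependent histone genes resemble each other closely, so signal could be shared between copies.

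**Figure D2:**
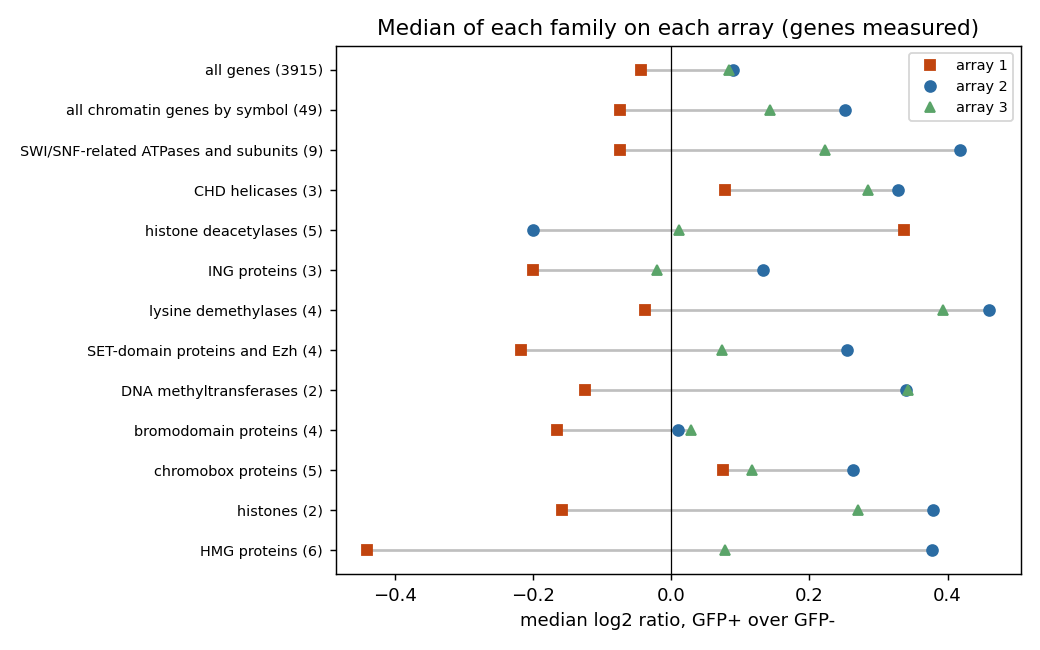
Median log2 ratio (GFP+ over GFP-, horizontal axis) of each family on each array, for all genes, for all 49 chromatin genes and for families with at least 2 measured genes, with the number of genes in brackets and a grey line from the lowest to the highest array. Deacetylases stand at 0.34 on array 1 and -0.20 on array 2, and HMG genes at -0.44 and 0.38.

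Opposition between array 1 and the other arrays was the most frequent pattern. Of the 49 members, 21 were negative on array 1 and positive on arrays 2 and 3 (42.9%, against 31% of all genes), and 5 showed the reverse (10.2%, against 19%). The 5 were Cbx1, Hdac7, Ing2, Kat8 and Smarcb1. Only 11 were positive on all 3 arrays (22.4%, against 20.7%) and 4 negative on all 3 (8.16%, against 15.3%), the latter being Brd3, Brd7, Hdac2 and Setd3. Across the members, which are not independent of each other and share the same arrays, Pearson's r was 0.860 between arrays 2 and 3, -0.336 between arrays 1 and 2 and -0.022 between arrays 1 and 3. The median SD over arrays was 0.29 for members and 0.31 for all genes.

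**Figure D3:**
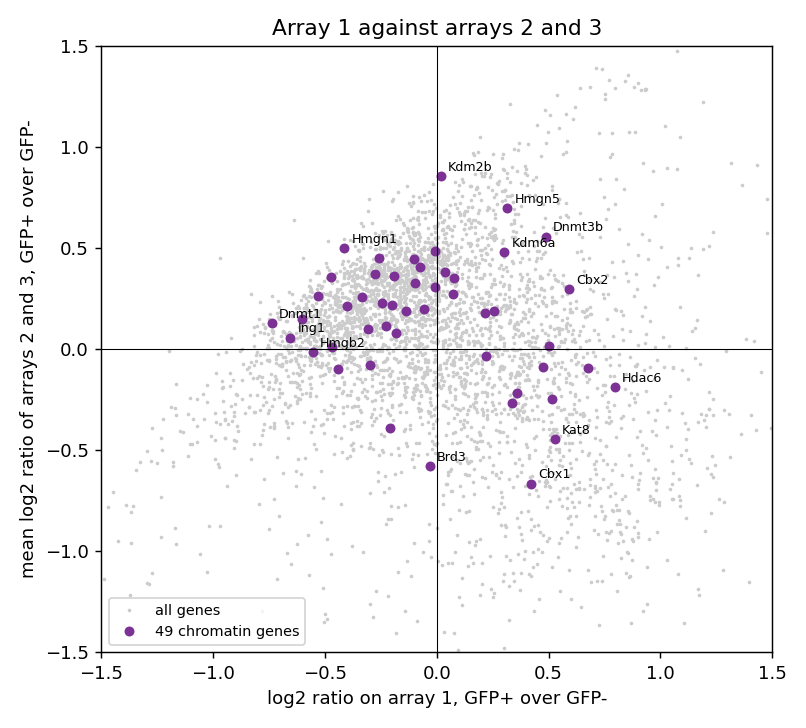
Log2 ratio on array 1 (horizontal axis) against the mean log2 ratio of arrays 2 and 3 (vertical axis), GFP+ over GFP-, for the 49 chromatin genes (large points, some named) and all 3915 genes (small points). Both axes end at 1.5 either side of 0, which leaves out 94 genes and no chromatin gene, and 21 chromatin genes were negative on array 1 and positive on both others.

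Leaving out array 1 changed the calls. Arrays 2 and 3 alone gave 17 members higher and 4 lower by limma with adjustment over all genes, beside 27.5% and 18.8% of all genes, so the members' shares were 34.7% and 8.16%. All 4 measured lysine demethylases, 5 of 9 Smarc genes (Smarca2, Smarca4, Smarcc1, Smarcd1 and Smarce1), Chd1l, Chd2, Hmgn1, Hmgn5, H3f3b, Setd6, Cbx2 and Dnmt3b were higher, and Cbx1, Brd3, Kat8 and Setd3 lower. The Smarca2 call rests on 1 probe. Its other probe lacks an array 1 value and did not enter, and it read -0.65 and -0.70 on arrays 2 and 3. The 5 deacetylases, 3 ING genes and Rbbp4 in the fit without array 1 gave 0 calls. Genes lacking an array 1 value did not enter that fit. Hdac5, Rbbp5, Rbbp7, Ezh2 and Kat14, read on arrays 2 and 3 only, were therefore not tested there. The highest 2-array mean was that of Kdm2b, 0.86 (limma adjusted p = 0.00384), followed by Hmgn5 with 0.70 (limma adjusted p = 0.00486) and Dnmt3b with 0.56 (limma adjusted p = 0.00827). The lowest were Cbx1 with -0.67 (limma adjusted p = 0.0165) and Brd3 with -0.58 (limma adjusted p = 0.00787). Weighting the arrays by their agreement gave the same calls plus Cbx6, or 18 higher and 4 lower, beside 33.4% and 22% of all genes. Without array 2 no member passed, beside 1.25% of all genes called higher and 1.79% lower. Without array 3 none passed either, beside 0.59% and 1.3% of all genes. Which array reflects the cells cannot be told from 3 arrays, and a limma p from arrays 2 and 3 measures only their spread.

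Of 174 listed remodeller, corepressor, Polycomb, methyltransferase, acetyltransferase, chaperone, linker histone, DNA methylation and cohesin genes, 77 were measured on all arrays, and none passed in limma, with 2 higher and 0 lower at an unadjusted p below 0.05 and 0 higher and 1 lower, Chaf1a (-0.22 ± 0.038, also named after its value was seen), by the ordinary statistic. The 2 are 2.6% of the 77, beside 8.45% of all genes by limma, where 6.41% of all genes were lower. After adjustment, limma called 1.38% of all genes higher and 1.4% lower. By the ordinary statistic, 7.25% of all genes were higher and 4.78% lower. The median of the 77 was -0.015, and 37 of the 77 means (48.1%, against 54.9% of all genes) were above 0. Without array 1, 15 were called higher and 9 lower (19.5% and 11.7%, against 27.5% and 18.8%). The 2 higher by limma were Anp32a, a histone chaperone that is named after its value was seen (0.50 ± 0.32), and the SWI/SNF subunit Arid1b (0.42 ± 0.21, limma adjusted p = 0.310), and both were positive on all arrays. Also of largest mean were Baz1b (0.32 ± 0.14) in the remodeller list, and Mbd1 (0.36 ± 0.17) and Mta1 (-0.36 ± 0.28) in the list of NuRD, Sin3 and corepressor partners. The 10 measured Polycomb partners had a median of 0.13, led by Phc1 (0.29 ± 0.39) and Ring1 (0.26 ± 0.30), whereas the histone chaperones had -0.13 over 13 genes, with Nap1l1 (-0.58 ± 0.67) and Npm1 (-0.52 ± 0.48) lowest. In the list of acetyltransferases and their partners, the means of Hat1 (-0.54 ± 1.44) and Msl1 (-0.62 ± 1.14) rested on arrays of opposite sign, 1.10, -1.57 and -1.14 for Hat1. Smyd2 (-0.41 ± 0.63) and Dpy30 (0.36 ± 0.71) of the methyltransferase list, Rad21 (-0.11 ± 0.29) and Stag2 (0.15 ± 0.25) of cohesin, Cenpa (-0.11 ± 0.47) and Hp1bp3 (0.0075 ± 0.21) of the histone list, and Tdg (0.10 ± 0.40) and Dmap1 (0.24 ± 0.30) of the DNA methylation list did not pass either.

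Cell cycle genes are given beside the chromatin genes because several of the latter, Dnmt1, Hmgb2 and Ezh2 among them, are known to be high in dividing cells. Of 25 cell cycle genes, 14 were measured, with a median of -0.18 and array medians of -0.41, -0.025 and -0.049. None passed in limma, beside 1.38% of all genes called higher and 1.4% lower. At an unadjusted limma p below 0.05, 0 were higher and 2 lower, beside 8.45% and 6.41% of all genes. The 2 were the replication helicase subunit Mcm4 (-0.50 ± 0.040) and the proliferation marker Mki67 (-0.64 ± 0.55). In the GFP- fraction, 3 of 6 measured cap mesenchyme markers, 3 of 4 stroma and 2 of 3 erythroid markers were higher (called lower in GFP+ by limma). The same call was made for 0 of 7 endothelial markers and for 1.4% of all genes. The part of these markers in the chromatin values was not tested.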

How the data were processed

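The 3 deposited columns hold log2 ratios of GFP+ over GFP- RNA, and per the labels the images were quantified in Imagene 5.5. The authors adjusted the control channel by a Lowess curve (20% of the data per point), whose values below 10 were raised to 10. The rule of the authors' filter, the dyes and a genome build are not given in the sources used here. As dye swap, "none" is entered in the labels, so a dye effect of a gene cannot be told apart from a cell difference. Symbols came from the platform annotation (17252 probes with 1 symbol, 156 with several, 5294 with none) and were updated by gene identifier to RefSeq of GRCm38.p6 for 16566. Probes with several symbols were left out. A gene's probes with values on all 3 arrays were averaged, which gave 3915 genes, and each mean was set against 0 by limma's moderated test (limma version 3.58.1, R version 4.3.3, functions lmFit and eBayes, two-sided, Benjamini-Hochberg over all 3915, threshold 0.05). The script was tested on simulated data with independent arrays. That setting lacks the likeness of arrays 2 and 3 and the departure of array 1, so it does not bear on the calls here. The number of arrays limits precision; no source says that they came from separate embryo pools, so p-values measure the spread between arrays, which may be technical. Members, families and lists were chosen with earlier results of these data known. Array values are given for the highest and lowest member of each family, the 6 highest and lowest overall and a list of fixed genes. The remaining members have mean and SD, and genes with values on fewer arrays have those values and no test in the main fit. An alternative fit that admitted genes with 2 arrays tested 57 members by limma. It called 0 higher and 0 lower, beside 1.37% and 1.71% of all genes. For each other list, the 2 genes of largest mean are named, and of the marker lists only counts and medians, with Mki67 and Mcm4. Alternatives left out each array, centred, scaled or quantile-normalized arrays, weighted them (gene-by-gene estimate, since the default one did not converge), averaged arrays 2 and 3, dropped variance sharing, admitted genes with 2 arrays or kept 1 probe a gene.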

Additional observations from a re-analysis of the deposited data

How the results depend on the processing

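Leaving out each array in turn gave 0 to 17 chromatin genes higher and 0 to 4 lower in GFP+ cells by limma. The 17 and 4 came from the fit without array 1, beside 27.5% and 18.8% of all genes. The fit without array 2 gave 0 and 0, beside 1.25% and 1.79% of all genes. The fit without array 3 also gave 0 and 0, beside 0.59% and 1.3%. Array weights (0.15, 1.55 and 4.3 for arrays 1, 2 and 3) gave 18 higher and 4 lower, beside 33.4% and 22% of all genes. Centring, scaling and quantile normalization of the arrays, averaging arrays 2 and 3, the ordinary statistic, a robust prior, genes with 2 arrays and the choice of probe each gave 0 and 0, as did 2 settings chosen after seeing the data (averaging every probe value, and adding the renamed histone genes). Few genes of any kind were called in these settings. The shares of all genes ran from 0.03% higher and 0% lower (ordinary statistic) to 1.94% and 2.15% (quantile normalization). The members' median was 0.081 and lay between 0.031 after centring and 0.191 without array 1, with that of all genes at -0.016 and 0.090. Of the 49 means, 11 changed sign without array 1, 13 without array 2 and 6 without array 3. Each ratio already sets both fractions of an array against each other, and no replicate block could be added because the arrays form 1 group. Family medians near 0 changed sign with the arrays used, among them the deacetylases to -0.098 without array 1, and the SET-domain and HMG genes to -0.120 and -0.135 without array 2. Signal over background was not analysed here, so dim genes could not be set apart.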

Other observations

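Members measured on array 3 alone were all negative there. The 8 genes, Kat2a, Kat6b, Kdm1a, Kdm3b, Setd5, Smarca1, Smarcad1 and Smarcc2, had a median of -0.26 on the log2 scale, and 8 of 8 were below 0. Over all 764 genes measured on array 3 alone, 56.2% were below 0 and the median was -0.057. With 1 array each, the error of these values cannot be estimated.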
